A study of Mus musculus with 9 samples.

Results

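Small nucleolar RNA genes were described in 9 whole-heart expression arrays of infarcted mice. The genes were those whose array symbol begins with Snora or Snord and continues with a number, taken from probe sets listed under 1 gene symbol. Where a gene had several such probe sets, the one with the highest mean over the arrays stood for it. This gave 62 genes of 30145 in all, 18 Snora and 44 Snord, from 66 probe sets. A further 42 probe sets list a small nucleolar RNA beside another symbol, such as Rpl13a with Snord32a, Snord33 and Snord34 or Gas5 with Snord47, and were not used. Of 10 C/D box RNAs looked for from the noncoding host Gas5, 0 had a probe set of their own, and of 4 from Rpl13a only Snord35a did.

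All hearts came from immunodeficient nude mice whose left anterior descending coronary artery had been tied permanently, and mice with an ejection fraction under 50% were treated 3 weeks after the infarct. Hearts were taken 6 weeks after treatment. There were 3 arrays of hearts given the extracellular vesicles that 500000 cardiac progenitor cells secrete in 48 hours, 3 arrays of hearts given 500000 of those cells, 1 array of a sham heart (3 needle insertions without injection) and 2 control arrays of hearts given cell-free alpha-MEM medium at 3 sites. All 9 hearts, the sham heart included, carry the label of chronic heart failure. The titles number the experiments: experiment 9 holds vesicle array 1, cell array 1, the sham array and control array 1 (all VTS3, an undefined label), and experiment 1 holds vesicle arrays 2 and 3, cell arrays 2 and 3 and control array 2. In experiment 1, vesicle array 2, cell array 2 and control array 2 are VTS1 and vesicle array 3 and cell array 3 are VTS2. The labels do not say that each array is a separate mouse, so errors and p-values measure the spread between arrays. In RNA of a whole heart, fewer cells of a type and less RNA per cell cannot be told apart.

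Small nucleolar RNAs are short stable RNAs that pair with ribosomal or spliceosomal RNA and place a chemical mark on it. Snord genes make C/D box RNAs, which bind fibrillarin and guide methylation of ribose. Snora genes make H/ACA box RNAs, which bind dyskerin and guide the change of uridine to pseudouridine. In mammals most are not transcribed on their own: they lie in introns of host genes, often genes for ribosomal or nucleolar proteins, and are trimmed out of the spliced intron, so the mature RNA and its host transcript part ways after splicing.

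For 59 of the 62 genes the RefSeq gene table places the gene inside the span of a protein-coding gene or long noncoding RNA (strand was not given in that table); Snord118, Snord13 and Snord89 had none. The sequences of the small RNAs themselves were not used here. The start sites of 5 hosts are shown because these hosts carry C/D box RNAs that had an unadjusted p under 0.05 for vesicles against cells or medium, and because 3 of them encode ribosomal proteins (Rpl13a with Snord35a, Rps13 with Snord14a, Rps3 with Snord15a) and the others encode nucleolar proteins (Gnl3 with Snord69, Nop56 with Snord110). Each line runs 5′ to 3′ on the strand of the host from 20 bases before to 30 bases after the first start that RefSeq lists (GRCm38.p6), with any run of 8 or more letters that are each C or T in capitals.
Rpl13a, chr7:45128716-45128765, minus strand: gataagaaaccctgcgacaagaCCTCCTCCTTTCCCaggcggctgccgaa
Rps13, chr7:116334161-116334210, minus strand: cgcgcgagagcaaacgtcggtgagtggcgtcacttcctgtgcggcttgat
Rps3, chr7:99483680-99483729, minus strand: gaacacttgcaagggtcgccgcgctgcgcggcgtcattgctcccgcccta
Gnl3, chr14:31019102-31019151, minus strand: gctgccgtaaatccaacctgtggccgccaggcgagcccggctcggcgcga
Nop56, chr2:130274392-130274441, plus strand: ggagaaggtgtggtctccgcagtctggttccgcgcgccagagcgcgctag
Many genes of the translation machinery begin in a run of pyrimidines, and in this window of 50 bases Rpl13a has one of 14 letters while the other 4 hosts printed have none. Such a run stood in 11 of the 46 hosts with an entry (23.9%) and in 5093 of all 27025 genes in that promoter table (18.8%), searched on the gene's own strand. The match describes letters only.

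The 9 arrays were alike in overall level: the median over all 30145 genes lay between 5.56 and 5.63 on the log2 scale on each array. The 95th percentile of 10553 negative-control probe sets lay between 7.18 and 7.28, with a mean of 7.22. A gene was called above the negative controls when its mean over the arrays passed that mean. All values below are log2 signals, and differences are differences of log2 values. Heart muscle transcripts were high on every array, with a summed level of 6 measured markers between 14.86 and 14.96, as fits the labelled tissue. A list of 6 lung epithelium genes had a summed level of 10.87 on vesicle array 3 and 8.01 on the sham array, against 7.31 to 7.44 on the other 7 arrays; its part in the results on small nucleolar RNAs was not tested.

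The levels of both classes spread widely. Snora genes had means between 4.18 and 8.77 with a median of 7.37, and 10 of 18 (55.6%) lay above the negative controls. Snord genes had means between 2.65 and 11.52 with a median of 7.67, and 26 of 44 (59.1%) lay above them. Over all genes the median was 5.59 and 22.1% lay above. Probe sets differ in brightness for equal amounts of RNA, so these class medians describe the probe sets and not the abundance of the RNAs. Against the 99th percentile of the controls, 12 Snord genes and 0 Snora genes remained above, compared with 2044 of all genes.

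The brightest C/D box gene, Snord69 inside the nucleolar GTPase gene Gnl3, averaged 11.52. Snord110 (inside the C/D box core protein gene Nop56) averaged 10.39, Snord61 (inside the RNA-binding protein gene Rbmx) 10.19 and Snord42a (inside Rpl23a) 10.19. The brightest H/ACA box genes included Snora47 (inside Zbed3) at 8.77, Snora21 (inside Rpl23) at 8.67, Snora73b (inside Snhg3) at 7.93 and Snora62 (inside Rpsa, a laminin-binding ribosomal protein) at 7.69. Snora73a and Snora73b are near-identical copies with a role in the early cleavage of ribosomal RNA, so their probe sets may share signal.

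Several members of known role were dim. Snora35, which lies in the serotonin receptor gene Htr2c and is known as a brain RNA, averaged 5.26, and Snord64, from the imprinted noncoding transcript Snhg14, averaged 4.42, both below the negative-control level. Snord118, which acts in processing of the large-subunit ribosomal RNA and has its own promoter, averaged 5.45 on the probe set used and 2.40 on its other one, so the pair disagree on its level. Snord13, which guides acetylation of ribosomal RNA (shown in human cells), averaged 6.96 and 6.84 on its probe sets. The probe set used for Snord58b is named for chromosome 14, whereas its RefSeq host Rpl17 lies on chromosome 18, where the other probe set sits (means 7.77 and 7.71).

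Exact ties between arrays were rarer among these genes than in the table as a whole. Of all genes 61.1% hold the same value, to the last digit, on 3 or more arrays. Of the Snora genes 3 of 18 (16.7%) did so, and of the Snord genes 5 of 44 (11.4%). Snora19 stood at 4.18 on the sham array, vesicle array 2, cell array 2 and control array 2, and Snora68 at 7.97 on the sham array, vesicle array 3, cell array 2 and control array 2. Snora35 (5.25), Snord15a (6.06), Snord8 (8.27), Snord90 (2.63), Snord92 (3.57) and Snord93 (8.14) each shared 1 value on 3 arrays. Level alone leaves a gap in the same direction: between 7 and 8 on the log2 scale 58.8% of genes are tied on 3 or more arrays, and of the 15 small nucleolar RNA genes there 1 is. Above 10 the share over all genes was 11.5%, and none of the 6 Snord genes there was tied. No label or header explains how the ties arose. A shared value narrows the apparent spread between arrays, and the test results for tied genes carry that limit.

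The spread over arrays was also wider than for most genes. The highest and lowest array of a gene were a median of 0.44 apart for Snora and 0.47 for Snord, against 0.20 for all genes. Snord14e and Snord64 had the widest range, 1.37 each, followed by Snora75 at 1.22, Snora7a at 0.98, Snord70 at 0.85 and Snora16a at 0.83. Snord71 had the narrowest at 0.14.

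The arrays of experiment 9 carried most of that spread. Vesicle array 1 held the lowest value for 33 of the 62 genes (9 Snora and 24 Snord), against 14.6% of all genes. Cell array 1 held the highest value for 31 (10 Snora and 21 Snord), against 12.2% of all genes. Measured as the deviation from each gene's own mean, the Snora median was -0.14 on vesicle array 1 and 0.18 on cell array 1, and the Snord median was -0.13 and 0.13. On the sham array and control array 1 the Snora medians were -0.018 and -0.0045 and the Snord medians -0.049 and 0.019. In experiment 1 the medians were smaller in size than those on vesicle array 1 and cell array 1, though not than all of those on the sham array and control array 1: for Snord -0.039 and -0.016 on vesicle arrays 2 and 3, -0.032 and 0.058 on cell arrays 2 and 3 and 0.073 on control array 2; for Snora -0.0083 and -0.0091, -0.047 and 0.033, and -0.043 on the same arrays.

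**Figure D1:**
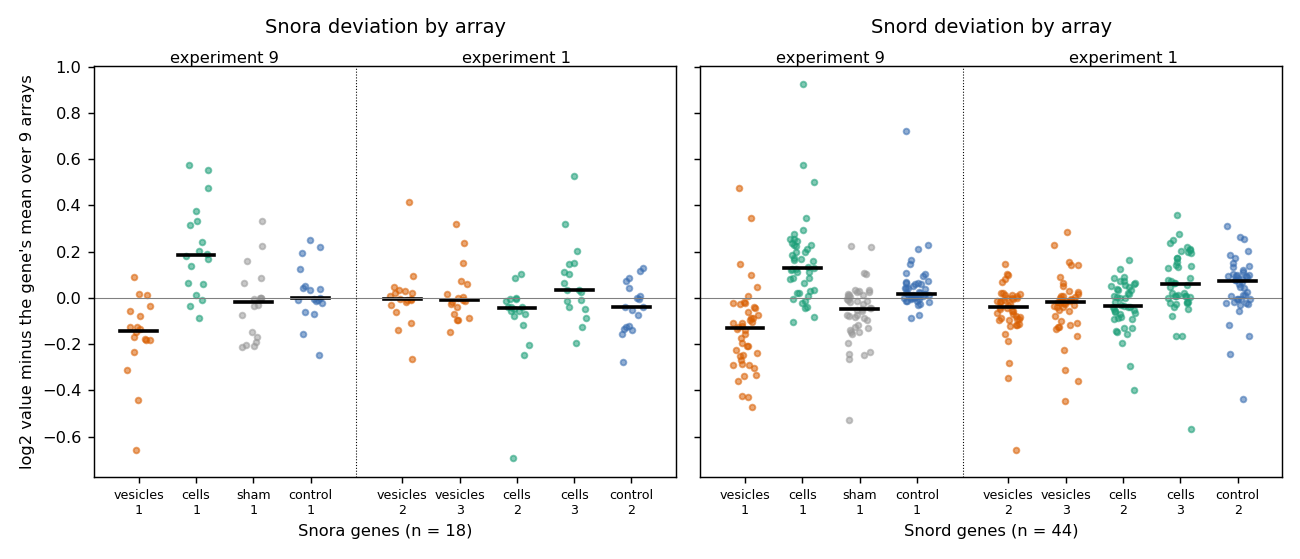
Deviation of each small nucleolar RNA gene from its own mean over 9 arrays (log2, vertical axis) on each array, Snora genes left and Snord genes right; points are genes and black bars are medians. Vesicle array 1 sits lowest (medians -0.14 and -0.13) and cell array 1 highest (0.18 and 0.13), and the arrays of experiment 1 lie closer to 0 than these 2 arrays.

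Hearts given vesicles were compared with hearts given medium to ask whether the secreted vesicles left a trace in these RNAs. In a limma fit that took a mean for each treatment and blocked on the experiment, no small nucleolar RNA gene passed an adjusted p of 0.05, as no gene in the whole table did (0% of 30145); the smallest adjusted p among the members was 0.675. Within that limit the C/D box genes leaned one way. Of 44 Snord genes 39 had lower fitted values with vesicles, with a median difference of -0.14, whereas 60.4% of all genes were lower with a median of -0.012. Without vesicle array 1, 28 of 44 Snord genes were lower with a median of -0.076, beside 58.7% of all genes. With all arrays the Snord median was -0.17 in experiment 9 and -0.13 in experiment 1. In both experiments 32 of the 44 Snord genes were lower, beside 7861 of all 30145 genes. Of the 18 Snora genes 12 were lower with a median of -0.036, but the sign of the median differed between the experiments (-0.15 in experiment 9 and 0.051 in experiment 1), and without vesicle array 1 only 5 were lower and the median was 0.077.

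An unadjusted p under 0.05 was met by 7 of the 44 Snord genes, and all 7 were lower; no Snord gene was higher and no Snora gene passed in either direction. Over all genes 4.53% passed as lower and 1.91% as higher. The share of Snord genes that passed as lower was above that background, while none of them survives adjustment. All vesicle arrays lay below the control array of their own experiment for 27 Snord and 6 Snora genes, against 18.3% of all genes. That background is itself uneven, because control array 2 alone is the reference for both vesicle arrays of experiment 1.

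The 4 genes with the lowest p were Snord35a, Snord69, Snord89 and Snord88c. Snord35a is one of the C/D box RNAs of the Rpl13a locus, which have been linked to oxidative stress in lipid-loaded cells. Its log2 signal was 9.07, 9.11 and 9.21 on vesicle arrays 1 to 3 and 9.15 on the sham array, against 9.23 and 9.31 on control arrays 1 and 2. Every vesicle array was thus below both controls, with a fitted difference of -0.15 (SE 0.037, limma adjusted p = 0.675). Snord69 read 11.31, 11.45 and 11.51 with vesicles and 11.49 in the sham heart, against 11.56 and 11.72 with medium. Its groups did not overlap, and the fitted difference was -0.23 (SE 0.06, limma adjusted p = 0.675), or 0.85 times the control signal.

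Snord89, which has no host in the gene table, read 7.63, 7.74 and 7.72 with vesicles and 7.59 in the sham heart, against 7.94 and 8.02 with medium. The sham array lay below the vesicle arrays for Snord89, and within their range for Snord35a, Snord69 and Snord88c. For Snord89 the fitted difference of vesicles against medium was -0.28 (SE 0.076, limma adjusted p = 0.675). Snord88c read 5.84, 5.92 and 5.93 with vesicles and 5.92 in the sham heart, against 5.89 and 6.22 with medium. Its control arrays differ more from each other than vesicle array 1 differs from control array 1, and the difference of -0.18 (SE 0.059, limma adjusted p = 0.675) was -0.049 in experiment 9 and -0.29 in experiment 1. Without control array 1 its difference was -0.29 with an adjusted p of 0.042, in a fit where 825 genes of the table passed.

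Among H/ACA box genes, Snora7a (inside Rpl32) had the largest difference. It read 6.28, 6.80 and 6.92 with vesicles and 6.94 in the sham heart, against 7.19 and 7.07 with medium. Vesicle array 1 was far below the rest, and the fitted difference of -0.49 (SE 0.21, limma adjusted p = 0.675) was -0.91 in experiment 9 and -0.21 in experiment 1. Snora78 (inside Rps2 and Snhg9), Snora19 and Snora35 were the other genes with the lowest p among those lower in both experiments, with differences of -0.16, -0.077 and -0.07. Higher in both experiments were Snora62 (0.25) and Snora16a (0.13) and, among Snord genes, Snord98 (0.21) and Snord45b (0.37); none of these had an unadjusted p under 0.05. Snora62 read 7.51, 8.10 and 7.69 with vesicles, against 7.44 and 7.53 with medium, so that vesicle array 2 set most of the difference.

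**Figure D2:**
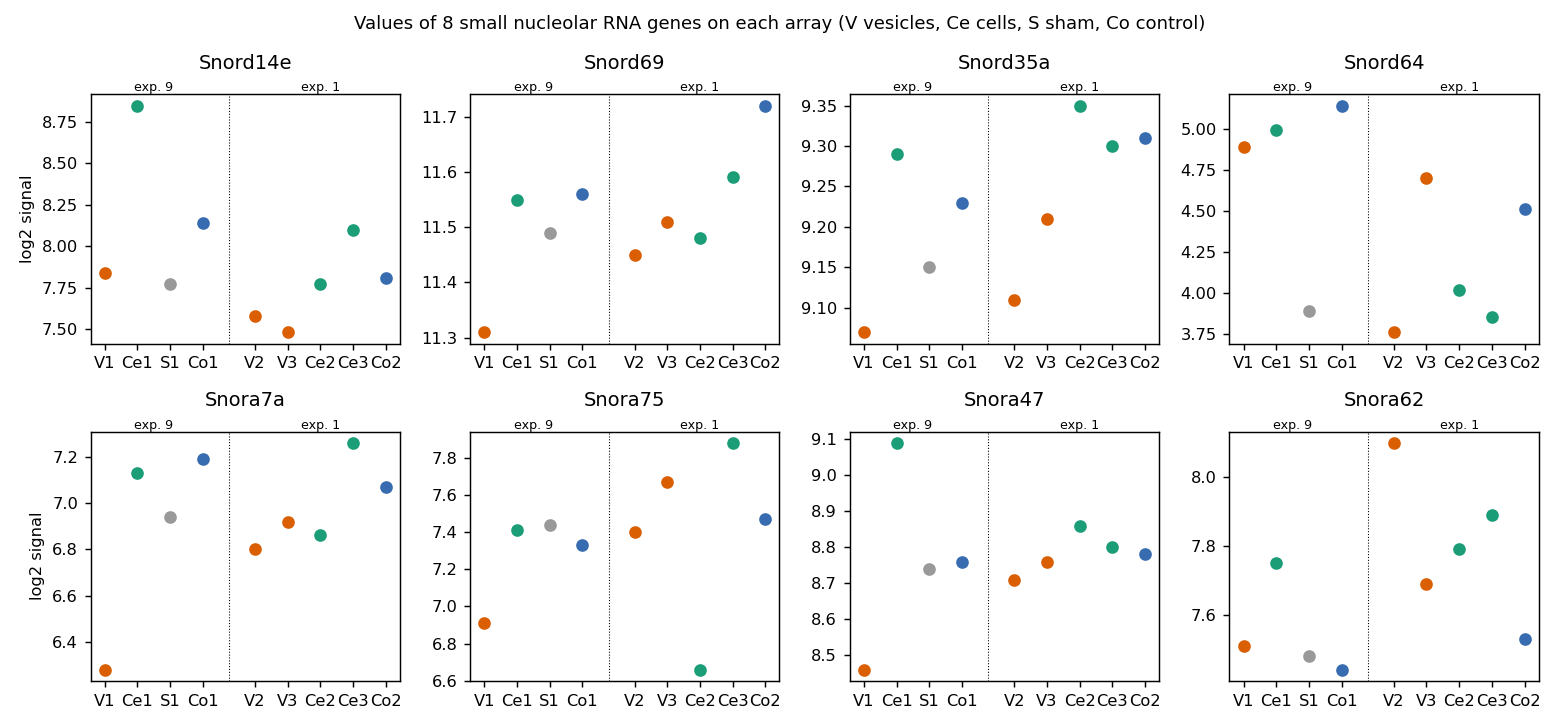
Log2 signal (vertical axis, own scale per gene) of 8 small nucleolar RNA genes on the 9 arrays, with experiment 9 left and experiment 1 right of the dotted line. Snord35a and Snord69 are lower on the vesicle arrays than on both control arrays, Snord14e peaks at 8.85 on cell array 1 and Snora75 drops to 6.66 on cell array 2.

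Of 13 measured genes listed for a known role in processing, imprinting, brain or stress (Snora35, Snora73a, Snora73b, Snora7a, Snord118, Snord13, Snord14a, Snord14e, Snord35a, Snord49a, Snord49b, Snord61 and Snord64), 12 were lower with vesicles than with medium, with a median of -0.15, and Snora73a alone was higher (0.07). These 13 are part of the 62 members, of which 51 were lower with a median of -0.10, beside 60.4% of all genes. Snord49a and Snord49b share the noncoding host 2410006H16Rik. Snord49a differed by -0.14 (SE 0.099) and Snord49b by -0.24 (SE 0.13), and neither had an unadjusted p under 0.05.

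Hearts given the cells themselves were compared with the same medium controls, which the vesicle comparison shares. No gene passed an adjusted p of 0.05 (0% of all genes; smallest among members 0.682). Of 18 Snora genes 13 were higher with a median of 0.099, and of 44 Snord genes 27 with a median of 0.02. Over all genes 44.1% were higher with a median of -0.0064. Among all genes above the negative controls 66.5% were higher, with a median of 0.02. Of the members above them, 16 of 26 Snord genes (61.5%, median 0.015) and 9 of 10 Snora genes (median 0.16) were higher. Experiment 9 gave medians of 0.23 for Snora and 0.076 for Snord, while experiment 1 gave 0.018 and -0.02. Without cell array 1 the medians were -0.025 for Snora and -0.059 for Snord, with 12 of 18 and 32 of 44 genes lower, beside 57.7% of all genes. Without cell array 2 they were 0.18 and 0.083, with 3 and 9 genes lower. With an unadjusted p under 0.05, 1 Snord gene was lower (Snord23) and 1 higher (Snord98), against 5.05% lower and 1.68% higher over all genes. All cell arrays exceeded the control array of their experiment for 7 Snora and 6 Snord genes, against 8.86% of all genes.

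Snord23, inside the ribosome biogenesis gene Nop53, read 8.49 on each of the cell arrays and 8.40 in the sham heart, against 8.54 and 8.79 with medium. Control array 2 was the highest of the 9, and the fitted difference was -0.19 (SE 0.057, limma adjusted p = 0.682). Snord98 (inside Ccar1) read 5.09, 4.76 and 4.58 with cells, against 4.73 and 4.50 with medium, all under the negative-control level, with a difference of 0.24 (SE 0.092, limma adjusted p = 0.682). Its RefSeq entry is the shortest among the genes at 28 bases. The genes with the next lowest p and a higher value in both experiments were Snord14e (0.36), Snord87 (0.10) and Snord14a (0.08). Those with a lower value in both were Snord69 (-0.12), Snord64 (-0.40) and Snord85 (-0.18).

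On the H/ACA side Snora62 read 7.75, 7.79 and 7.89 with cells, against 7.44 and 7.53 with medium. The groups did not overlap, and the fitted difference was 0.30 (SE 0.14, limma adjusted p = 0.682). Snora73a (0.18), Snora69 (0.18) and Snora41 (0.15) followed, while Snora78 (-0.17), Snora19 (-0.076) and Snora7a (-0.075) were lower in both experiments. Snora75, inside the nucleolin gene Ncl, showed the widest spread of its class: 7.41, 6.66 and 7.88 with cells, against 7.33 and 7.47 with medium. Cell arrays 2 and 3, of the same experiment, were its lowest and its highest array.

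Vesicles and cells were set against each other to see whether the 2 forms of the treatment differ. No gene passed an adjusted p of 0.05 (0% of all genes; smallest among members 0.920). Of 44 Snord genes 37 were lower with vesicles than with cells with a median of -0.15, and of 18 Snora genes 16 were lower with a median of -0.085, while all genes were near even (52% lower, median -0.0007). Experiment 9 set the size of this: the Snord median was -0.27 there and -0.056 in experiment 1, and the Snora median was -0.36 there and 0.029 in experiment 1. With arrays compared inside each VTS label, the Snord medians were -0.27 for VTS3 (43 of 44 lower), -0.026 for VTS1 (25 lower) and -0.074 for VTS2 (32 lower), and the Snora medians were -0.36, 0.034 and -0.023. Without vesicle array 1 alone the medians were -0.071 for Snord (33 of 44 lower) and -0.00042 for Snora (9 of 18 lower), and without cell array 1 alone -0.077 (35 lower) and -0.0035 (10 lower). Leaving out vesicle array 1 and cell array 1 together was a choice made after seeing that these arrays hold the extreme values. The medians were then -0.056 for Snord and 0.029 for Snora. These repeat the experiment 1 medians above, because experiment 9 then adds nothing to the comparison.

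An unadjusted p under 0.05 was met by 9 Snord genes, all lower with vesicles, and by no Snora gene, against 2.59% lower and 1.75% higher over all genes. All vesicle arrays lay below all cell arrays of their experiment for 13 Snord and 2 Snora genes, and this held for 5.71% of all genes. The count includes genes whose gap in experiment 1 is within a few hundredths of a log2 unit.

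Snord35a had the lowest p of the members. It read 9.07, 9.11 and 9.21 with vesicles, against 9.29, 9.35 and 9.30 with cells. The 3 vesicle arrays were below all 3 cell arrays with differences of similar size in experiment 9 (-0.21) and experiment 1 (-0.17), and the fit gave -0.18 (SE 0.033, limma adjusted p = 0.920). Snord89 read 7.63, 7.74 and 7.72 with vesicles, against 8.06, 7.84 and 7.99 with cells, again without overlap, with a difference of -0.27 (SE 0.067, limma adjusted p = 0.920).

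Snord14e and Snord14a are C/D box genes of a family that acts in processing of small-subunit ribosomal RNA; Snord14e lies in the heat shock cognate gene Hspa8. Snord14e read 7.84, 7.58 and 7.48 with vesicles, against 8.85, 7.77 and 8.10 with cells. Cell array 1 stood 0.71 above its own control array, and the fitted difference of -0.61 (SE 0.16, limma adjusted p = 0.920) was -1.01 in experiment 9 and -0.41 in experiment 1. Snord14a, which lies in Rps13 and is dim at a mean of 5.81, read 5.85, 5.71 and 5.67 with vesicles, against 5.89, 5.84 and 6.04 with cells, a difference of -0.18 (SE 0.069, limma adjusted p = 0.920). Vesicle arrays were lower for both genes, although Snord14a differed by only -0.033 in experiment 9.

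Snord15a, inside Rps3, read 5.90, 5.95 and 6.06 with vesicles, against 6.06, 6.13 and 6.35 with cells. Its difference was -0.21 (SE 0.066, limma adjusted p = 0.920), but the value on vesicle array 3 is one of the 3 exactly equal values named above. For Snora the lowest p belonged to Snora47, which read 8.46, 8.71 and 8.76 with vesicles, against 9.09, 8.86 and 8.80 with cells. The groups did not overlap, yet experiment 9 differed by -0.64 and experiment 1 by -0.091, with a fitted difference of -0.27 (SE 0.12, limma adjusted p = 0.920). Snora7a (-0.42), Snora31 (-0.22) and Snora69 (-0.23) were the other H/ACA genes with the lowest p among those lower in both experiments. No member was higher with vesicles than with cells in both experiments, beside 6011 of all 30145 genes.

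**Figure D3:**
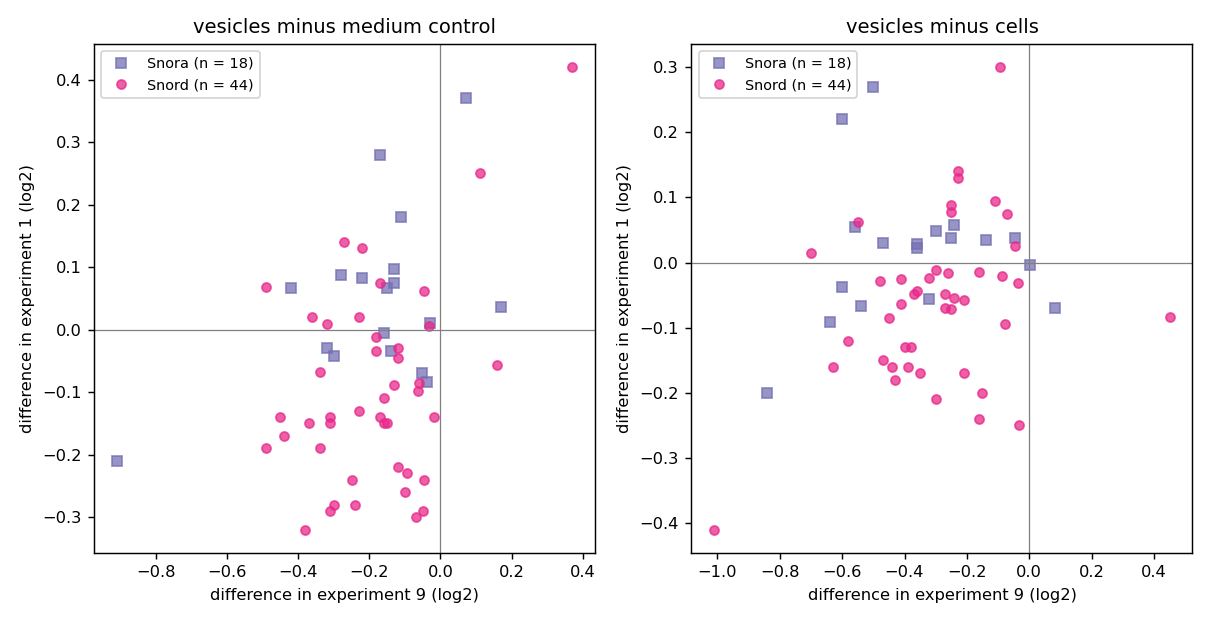
Log2 difference of each small nucleolar RNA gene in experiment 9 (horizontal axis) and in experiment 1 (vertical axis), for vesicles minus medium control (left) and vesicles minus cells (right), with squares for 18 Snora and circles for 44 Snord genes. Against medium 32 Snord genes lie below 0 on both axes; against cells 43 Snord and 16 Snora genes lie left of 0 but only 34 and 7 lie below it.

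The experiments themselves were compared across treatments. No gene passed an adjusted p of 0.05 (0% of all genes; smallest among members 0.333). With an unadjusted p under 0.05, 1 Snora and 5 Snord genes were higher and 2 Snord genes lower in experiment 9 than in experiment 1, against 6.2% higher and 6.56% lower over all genes. The medians were 0.016 for Snora and -0.026 for Snord over all members. Over all genes 58.5% were lower in experiment 9 with a median of -0.01. Among members above the negative controls, 18 of 26 Snord genes were lower in experiment 9 with a median of -0.04. Of all genes above the negative controls 32.5% were lower, with a median of 0.029. Snord64 was the largest: it read 4.89, 4.99, 3.89 and 5.14 on the vesicle, cell, sham and control arrays of experiment 9, against 3.76 and 4.70 (vesicles), 4.02 and 3.85 (cells) and 4.51 (control) in experiment 1. The sham array lay far below the other 3 arrays of its experiment, the fit, which leaves the sham out, gave 0.79 (SE 0.23, limma adjusted p = 0.347), and all values lie under the negative controls. Snord14e (0.54), Snord98 (0.25), Snora31 (0.30), Snora30 (0.29) and Snora2b (0.14) were the other highest ones by p, and Snord88c (-0.16), Snord23 (-0.12), Snord123 (-0.22), Snora35 (-0.065), Snora78 (-0.067) and Snora62 (-0.20) the lowest.

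Whether a treatment acts differently in the experiments was tested by an interaction term. None of the 62 genes passed an adjusted p of 0.05, nor did any gene of the table (0%); the smallest among the members was 0.0735 for vesicles against medium and 0.0803 for cells against medium. An unadjusted p under 0.05 was met by 11 and 13 of the members, and by 18.1% and 18.8% of all genes. The single sham heart could only be set beside control array 1, and with 1 array on each side there is no test. The median difference was -0.019 for Snora (10 of 18 lower) and -0.079 for Snord (32 of 44 lower). Over all genes 40.9% were lower and 38.8% higher, with a median of 0.

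Genes whose span holds a small nucleolar RNA gene, called hosts here whatever their strand, lay nearer to no difference than the small RNAs. Ap1g1 and Gm17344, both counted for Snord71, start on opposite strands, so they cannot both carry it. Of the 62 small nucleolar RNA genes, 33 had at least 1 host measured by its own probe set, 35 hosts in all. With vesicles against medium the hosts had a median difference of -0.0017 (20 lower, 15 higher), while the 33 small nucleolar RNA genes had -0.077 (27 lower). Against cells the hosts had -0.0028 (21 lower, 14 higher) and the 33 genes -0.099 (27 lower). None of the hosts passed an adjusted p of 0.05 in either comparison. Their differences between vesicles and medium lay between -0.10 and 0.10, and those of vesicles and cells between -0.084 and 0.12. Hspa8, the chaperone gene around Snord14e, differed by -0.072 between vesicles and cells (SE 0.057, limma adjusted p = 0.920), where Snord14e differed by -0.61. Ncl, around Snora75 and Snord82, differed by 0.12 (SE 0.061, limma adjusted p = 0.920), where Snora75 differed by 0.01 and Snord82 by -0.14. The difference between a host and its small RNA was not tested. Over all genes 61.1% share a value on 3 or more arrays, against 12.9% of the members. The median range over arrays was 0.20 for all genes and 0.47 for the members. Whether ties and narrow ranges account for the small host differences was not tested. In a list of well-known hosts, which also holds hosts of RNAs outside the 62 genes, the 21 measured coding hosts had a median of -0.006 for vesicles against medium (7 higher, 14 lower) and the 7 noncoding hosts -0.011 (2 higher, 5 lower).

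**Figure D4:**
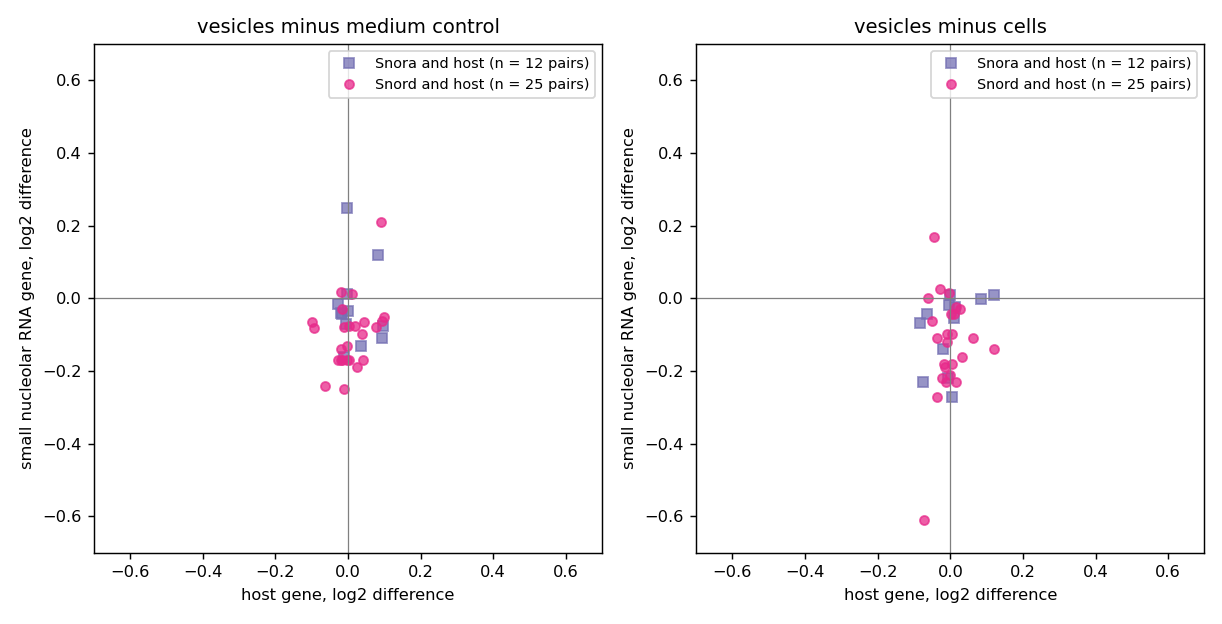
Log2 difference of the small nucleolar RNA gene (vertical axis) against that of its host gene (horizontal axis, same scale), for vesicles minus medium control (left) and vesicles minus cells (right); each point is 1 gene and host pair, 12 for Snora and 25 for Snord. The hosts lie between -0.10 and 0.12 while the small RNA genes reach -0.61. Hosts are genes whose span holds the small RNA gene, whatever their strand. Exact ties between arrays are more common over all genes than among the small RNA genes.

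None of the measured protein partners of the 2 classes passed an adjusted p of 0.05. Of the C/D box core proteins 2 were measured: Fbl, the methyltransferase fibrillarin, differed by 0.036 and Nop58 by -0.017 between vesicles and medium. All 4 H/ACA core proteins (Dkc1, the pseudouridine synthase dyskerin, with Gar1, Nhp2 and Nop10) were measured, all under the negative-control level, and 3 of 4 were lower with a median of -0.025. Of 15 measured assembly and maturation factors 0 passed an adjusted p of 0.05 in any treatment comparison; Naf1, an H/ACA assembly factor, had the lowest unadjusted p among them, with a difference of 0.14 for cells against medium (SE 0.051, limma adjusted p = 0.682). Of 23 nucleolar and rRNA synthesis genes none passed either, with medians of -0.0027 (vesicles against medium), 0.0022 (cells against medium) and -0.0033 (vesicles against cells). Imp3, a subunit of the small-subunit processome, differed by -0.13 (SE 0.032, limma adjusted p = 0.675) between vesicles and medium.

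Other short nuclear RNAs were set beside these genes, and the difference between them was not tested. In a list of 20 measured small nuclear and cytoplasmic RNAs, 18 were lower with vesicles than with cells (median -0.12) and 16 lower with vesicles than with medium (median -0.038); 3 of them, Rnu3b1, Rnu3b2 and Rnu3b3, are near-identical copies with the same printed values. Rnu11, an RNA of the minor spliceosome, differed by -0.12 from cells (SE 0.043, limma adjusted p = 0.920) and Rnu3a, a C/D box RNA needed for ribosomal RNA cleavage, by -0.17 (SE 0.057, limma adjusted p = 0.920). Rpph1, the RNA of ribonuclease P, differed by -0.067, and Scarna2, a guide RNA of Cajal bodies, by -0.059.

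By RefSeq biotype and above the negative controls, 247 snRNA genes had a median of -0.13 for vesicles against cells (95.1% lower), which was -0.54 in experiment 9 and 0.083 in experiment 1. The 56 other genes of the snoRNA biotype had -0.10 (92.9% lower), -0.25 and -0.042 in the same order of experiments. The 36 members above the controls had -0.13 (88.9% lower), -0.34 and -0.049. In 4821 protein-coding genes the median was -0.0038 (53.9% lower), and in 53 microRNA genes 0.018 (43.4% lower). Vesicle array 1 was lowest and cell array 1 highest for 191 and 235 of the snRNA genes, for 30 and 34 of the other snoRNA genes and for 22 and 20 of the members, but for 193 and 611 of the protein-coding genes. Many snRNA genes of the table are near-identical copies and their probe sets may share signal. What sets these 2 arrays apart for short RNAs was not tested.

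**Figure D5:**
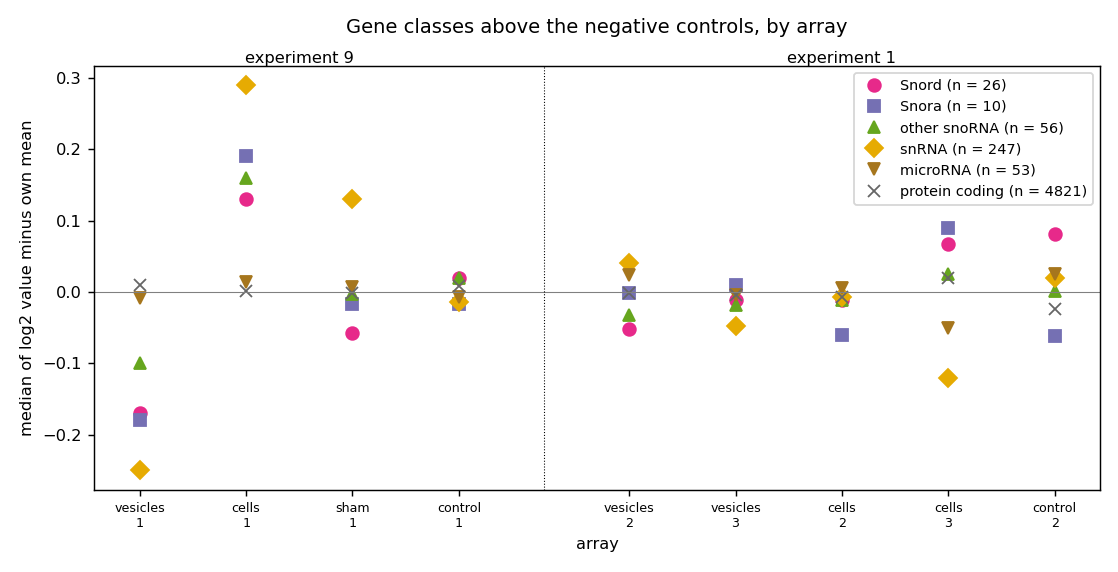
Median deviation from each gene's own mean (log2, vertical axis) on each array, for genes above the negative controls in 6 classes; 1 point is the median of a class on an array. Snord, Snora, other snoRNA and snRNA genes are low on vesicle array 1 and high on cell array 1, while protein-coding and microRNA genes stay near 0 on both.

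Markers of other cell types that a heart sample can hold had these levels. Fibroblast genes (3 measured, all above the negative controls) had summed levels of 11.57 to 11.65 on vesicle arrays, 11.31 to 11.59 on cell arrays, 11.64 on the sham array and 11.43 to 11.52 on control arrays. Summed levels of macrophage genes (4 measured) lay between 8.62 and 9.02 and those of erythroid genes (2 measured) between 7.37 and 8.04. Neuron genes (6 measured) lay between 8.35 and 8.43 and skeletal muscle genes (5 measured) between 12.29 and 12.69. Of these lists 1 macrophage, 0 erythroid, 1 neuron and 3 skeletal muscle genes were above the negative controls. A summed level can pass the negative-control level where its genes do not. Their part in the values of the small nucleolar RNA genes was not tested.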

How the data were processed

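The deposited table holds log2 values, 1 per probe set and array (80202 probe sets), normalized by the authors from Affymetrix whole-transcript arrays; per the submitters' processing notes Partek was used, without its settings, and no source used here records the background correction or scaling. The scale is read from the value range. Genes were named through the platform annotation: 30604 probe sets have 1 symbol, 2146 have several and were not used, and the rest are unnamed here. Updating symbols through Entrez numbers (22818 probe sets matched) gave 30142 genes and the same 62 members. The number of arrays limits the precision.

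Differences were fitted with limma 3.58.1 (R 4.3.3, lmFit and eBayes) on the 8 injected arrays, taking a mean for each treatment and blocking on the experiment (4 residual and 1.18 prior degrees of freedom), Benjamini-Hochberg over all 30145 genes; the steps were tested on simulated data. Replicate numbers follow the order of the samples and pair nothing. Members and gene lists were chosen with earlier results of these data known, so counts over them are descriptions. Genes are named by these rules: genes from the 5 highest means per class (some are not reported here), the 4 lowest p per direction, class and treatment comparison with the same sign in both experiments, the 3 lowest p per direction for the experiments, the 3 widest ranges per class, and genes of known role; of other lists, from the 4 lowest p. Tied genes, members with disagreeing probe sets, Snord71, Snord82, Hspa8 and Ncl were named after their values were seen. Alternatives were the block, sham counted as control, centring, quantile normalization, filters on dim or tied genes, the probe-set rule, symbols, the eBayes settings, the VTS label as the block and leaving out arrays.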

Additional observations from a re-analysis of the deposited data

Results flagged for a closer look

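The median difference of the 18 Snora genes had opposite signs in the experiments against their control array or mean cell value. With vesicles against the control array of the same experiment it was -0.15 on vesicle array 1, but 0.01 and 0.043 on vesicle arrays 2 and 3. With vesicles against the mean of the cell arrays of the same experiment it was -0.36 on vesicle array 1, but 0.00085 and 0.0034 on vesicle arrays 2 and 3. Against the cell array of the same VTS label it was 0.034 on vesicle array 2 and -0.023 on vesicle array 3. With that reference vesicle array 3 had the same sign as vesicle array 1. The values in experiment 1 are near 0, experiment 9 has 1 array per treatment, and the difference between the experiments was not tested for the class. The Snord medians on vesicle arrays 1 to 3 were -0.17, -0.11 and -0.098 against medium and -0.27, -0.06 and -0.061 against cells. Vesicle arrays 2 and 3 share control array 2, where the Snord median deviation from each gene's own mean was 0.073, and the same pair of cell arrays, so their values are not independent of each other.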

How the results depend on the processing

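No member passed an adjusted p of 0.05 in any comparison when the block, the scaling, the filters, the probe-set rule, the symbols or the eBayes settings were changed or 1 array was left out, except Snord88c without control array 1, so the counts range from 0 to 1 for vesicles and for cells against medium and stay at 0 for vesicles against cells and for the experiments. With vesicle array 1 and cell array 1 both left out (added after seeing the data) 2 members passed for vesicles against medium, 3 for cells against medium and 3 for the experiments, beside 1661, 1729 and 1918 of all genes; experiment 9 then holds only control array 1. In that fit Snora genes lower numbered 7 (vesicles against medium), 9 (cells against medium) and 7 (vesicles against cells). Snord genes lower with cells than medium numbered 28. The vesicles against cells medians were 0.029 for Snora and -0.056 for Snord. All of these are the values of experiment 1, since control array 1 alone adds nothing to a treatment comparison.

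Leaving out 1 array at a time, the Snord median ranged from -0.15 to -0.076 for vesicles against medium (28 to 40 of 44 lower), -0.18 to -0.071 for vesicles against cells (33 to 41) and -0.059 to 0.083 for cells against medium (9 to 32). The Snora median ranged from -0.069 to 0.077 (5 to 16 of 18 lower), -0.18 to -0.00042 (9 to 17) and -0.025 to 0.18 (3 to 12) in the same order of comparisons. The lowest counts for vesicles came without vesicle array 1 and the highest for cells without cell array 1.

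With only genes above the negative controls, 10 Snora and 26 Snord genes are left, and by that construction the lower ones numbered 5 and 24 (vesicles against medium), 9 and 23 (vesicles against cells) and 1 and 10 (cells against medium). Without tied genes 3 Snora genes were lower with cells than medium. Snord genes lower with cells than medium numbered 10 with the sham array counted as a control and 9 after centring; the cause was not tested. At the 99th percentile of the negative controls 0 Snora and 12 Snord genes lay above; values shared by 2 or more arrays held for 6 and 17 genes, and after rounding to 2 decimals 11 Snord genes were tied on 3 or more arrays. Of 886 refits of 47 named differences 6 changed sign. The eBayes settings and the gene filters leave a fitted difference unchanged, so those refits could not change a sign. The named treatment differences were also chosen for the same sign in both experiments. The count therefore does not measure how stable they are. Dim genes and ties limit what the arrays can show. Replicate numbers pair nothing, but vesicle and cell arrays share the VTS label in 3 pairs. With that label as the block in place of the experiment, no member passed an adjusted p of 0.05. That fit was added after seeing the data and has 3 residual degrees of freedom. Its vesicles against cells medians were -0.15 for Snord (37 of 44 lower) and -0.085 for Snora (16 of 18 lower). These cannot differ from the main fit, because vesicles and cells each have 1 array under every VTS label. Deviations from the group mean correlated across genes at 0.12, 0.18 and 0.03 within the pairs. Vesicle and cell arrays with unlike VTS labels correlated at -0.31 to 0.17, a range that holds 0.12 and 0.03.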
